A study of Mus musculus with 6 samples.

Results

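The Toll-like receptor genes of the mouse were examined in RNA sequencing of lineage-depleted bone marrow, with 3 libraries labelled Stag2KO and 3 labelled Stag2WT. The members were the rows of the deposited count table whose gene symbol is Tlr1, Tlr2, Tlr3, Tlr4, Tlr5, Tlr6, Tlr7, Tlr8, Tlr9 or Tlr13, which gave 10 genes of 33924 listed. Of these, 5 encode receptors of the cell surface (Tlr1, Tlr2, Tlr4, Tlr5 and Tlr6) and 5 encode receptors of endosomes (Tlr3, Tlr7, Tlr8, Tlr9 and Tlr13). Both groups were whole marrow from which cells carrying mature lineage markers had been removed with antibody-coated magnetic beads, a preparation that leaves stem cells, progenitors and some maturing cells. The genotype labels name Stag2, a subunit of the cohesin ring that holds chromatids and shapes chromatin loops, as knocked out or wild type. No allele, Cre driver, strain, age, pooling or treatment was named, and nothing in the labels ties the libraries of a group to separate animals. The p-values therefore set the difference between genotypes only against the spread among these libraries, which may be technical.

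Toll-like receptors are membrane proteins that recognise conserved microbial molecules and, through adaptor proteins, switch on NF-kB and interferon genes. The surface receptors bind lipids, lipoproteins and flagellin, whereas the endosomal receptors bind nucleic acids. In marrow they are best known on monocytes, macrophages, granulocytes, dendritic cells and B cells, and some have been described on early progenitors.

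The libraries held 29435651 to 37722325 reads assigned to genes, and 15708 genes passed the filter on low counts and were tested. Stag2 itself stood at 169, 187 and 183 CPM (reads of a gene scaled to the size of the library) in Stag2KO and at 338, 329 and 324 CPM in Stag2WT. Every library labelled Stag2KO stood below every library labelled Stag2WT. The log2 fold change of Stag2 was -0.88 (edgeR quasi-likelihood test, adjusted p = 0.000278). Counts are per gene, and a transcript lacking some exons would still add to them. Of all tested genes, 10.5% were called lower and 10.7% higher in Stag2KO at an adjusted p under 0.05. Stem and progenitor genes were present in every library, with a summed level of 671 to 942 CPM over 10 markers, 5 of them called higher and 0 lower in Stag2KO by edgeR, DESeq2 and limma-voom alike, with 0 lower also at an unadjusted p under 0.05. The share of table reads in no annotated gene was 11.7% ± 0.984 in Stag2KO and 9.24% ± 0.725 in Stag2WT (SD, n = 3 each), and the groups did not overlap. Its part in the differences below was examined only as a covariate.

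All 10 receptor genes were detected in all 6 libraries and all passed the filter. Only Tlr1 was called, lower in Stag2KO, so 1 of 10 members was lower and 0 were higher. That share lies near the 10.5% of all tested genes that were lower. At an unadjusted p under 0.05, 3 members were lower and 0 higher with each of edgeR, DESeq2 and limma-voom, which by edgeR were Tlr1, Tlr2 and Tlr8. Of all tested genes, the same threshold gave 18.5% lower and 18.6% higher by edgeR, 18.5% and 16.8% by DESeq2, and 18.6% and 18.8% by limma-voom. After adjustment, DESeq2 called Tlr8 as well as Tlr1, with 12.9% of tested genes called lower, and limma-voom called Tlr1 alone, with 9.99% called lower. The groups did not overlap for 2 of 10 members, Tlr1 and Tlr2, against 43.5% of all tested genes. In both, every Stag2KO value lay below every Stag2WT value, as it did for 21.2% of tested genes. The median log2 fold change was -0.01 over the 5 surface receptors, -0.36 over the 5 endosomal receptors and 0.01 over all tested genes. The endosomal median rested on single libraries, at -0.10 without Stag2WT replicate 1, -0.15 without Stag2KO replicate 1, -0.55 without Stag2WT replicate 2 and -0.72 without Stag2KO replicate 3. It was -0.07 with the share of reads in no gene as a covariate. The surface median ran from -0.09 to 0.15 over the fits without 1 library. These bulk values cannot tell apart fewer cells of a type and less RNA per cell.

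**Figure D1:**
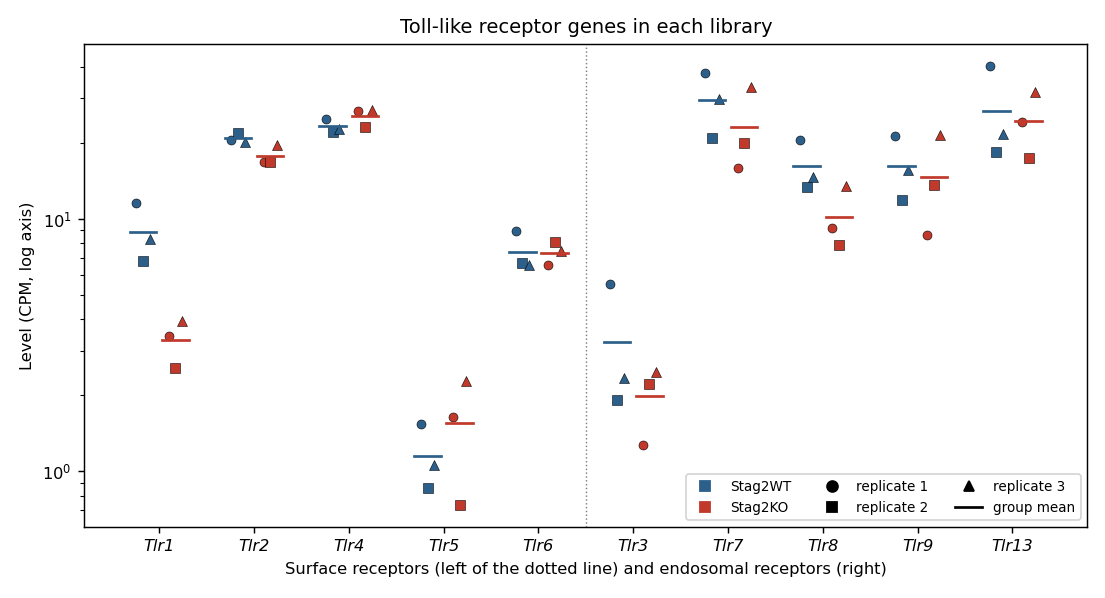
Level of each receptor gene in CPM on a log axis, with 1 point per library, blue for Stag2WT and red for Stag2KO, a marker shape per replicate and a line at each group mean. Tlr1 lies at 2.56 to 3.93 CPM in Stag2KO and 6.80 to 11.5 CPM in Stag2WT, while the groups overlap for the other members except Tlr2.

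Tlr1 encodes the partner that joins TLR2 on the cell surface to bind triacylated lipoproteins. Its level was 3.43, 2.56 and 3.93 CPM in the Stag2KO libraries, given here and below in the order of replicates 1 to 3, and 11.5, 6.80 and 8.34 CPM in the Stag2WT libraries. The highest Stag2KO library therefore stood below the lowest Stag2WT library. The group means were 3.31 ± 0.693 and 8.88 ± 2.39 CPM (SD, n = 3 each), and the log2 fold change was -1.42 (SE 0.24, 95% interval -1.97 to -0.88, adjusted p = 0.00577 by edgeR). These levels rest on 94 to 413 reads per library, and at 94 reads the counting error is 10.3%. The call held in 6 of 6 fits that left out 1 library, with adjusted p from 0.00928 to 0.0201. With the share of reads in no gene as a covariate, which correlated with genotype at 0.868 over the 6 libraries, the log2 fold change was -0.89 and the call was lost (adjusted p = 0.486). In that fit 67 genes were called in all, against 3333 without the covariate. The summed macrophage, B cell, eosinophil, and stem and progenitor markers, given below, also separated the genotypes. Their part in the Tlr1 difference was not tested.

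Tlr6 encodes the other partner of TLR2, used for diacylated lipoproteins, and is the gene next to Tlr1 on chromosome 5 in the GRCm38 assembly. It stood at 6.55, 8.06 and 7.41 CPM in the Stag2KO libraries, against 8.90, 6.68 and 6.53 CPM in those of Stag2WT. The groups overlapped, with a log2 fold change of -0.01 (95% interval -0.38 to 0.37, adjusted p = 0.984 by edgeR). The interval of Tlr6 thus did not reach that of Tlr1. For each Tlr6 read there were 0.524, 0.318 and 0.53 Tlr1 reads in the Stag2KO libraries and 1.29, 1.02 and 1.28 in the Stag2WT libraries. Tlr6 was the more counted gene in each Stag2KO library and Tlr1 in each Stag2WT library. This ratio was described and not tested.

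**Figure D2:**
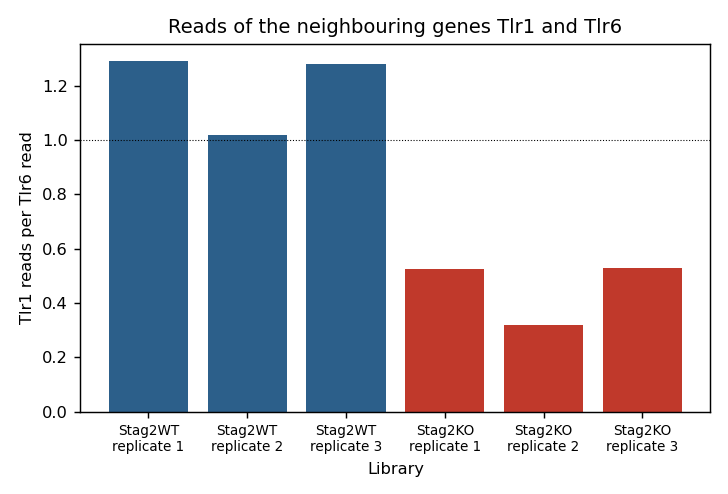
Number of Tlr1 reads per Tlr6 read (vertical axis, from 0) in each of the 6 libraries, blue for Stag2WT and red for Stag2KO, with a dotted line at equal reads. The Stag2WT libraries lie at 1.02 to 1.29 and the Stag2KO libraries at 0.318 to 0.53.

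Sequence likeness between Tlr1 and Tlr6 bears on these counts, because the table sets reads that align to more than 1 place apart from the gene counts. The coding sequences of the GENCODE M21 transcripts (GRCm38) were identical at 74.8% of 2362 aligned bases, against 54.5% for Tlr1 and Tlr2 and 55.1% for Tlr7 and Tlr8. Of all windows of 50 bases in the coding sequence, 19.4% in Tlr1 and 19.2% in Tlr6 occurred in a transcript of the other gene. The other 8 members shared no such window with any transcript of another gene. Without the read length this share is a guide only, and the levels of both genes are uncertain by an unknown amount. How far this bears on the ratio was not tested. The stretch below is the longest run that is identical in the 2 coding sequences, with 229 bases. It is printed because a single read lying wholly inside it matches both genes. It lies in coding exon sequence of Tlr1 at chr5:64925537-64925765 and of Tlr6 at chr5:64953828-64954056 (GRCm38, minus strand for both), at coding bases 1468 to 1696 of Tlr1 and 1507 to 1735 of Tlr6.
Tlr1 and Tlr6 shared run: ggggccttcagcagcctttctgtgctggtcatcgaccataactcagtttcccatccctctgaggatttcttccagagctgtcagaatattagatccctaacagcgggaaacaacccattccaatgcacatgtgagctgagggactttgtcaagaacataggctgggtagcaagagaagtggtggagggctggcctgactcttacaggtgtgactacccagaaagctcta

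The bases ahead of the outermost start of each gene are printed below from the RefSeq promoter table (GRCm38.p6, minus strand), trimmed where an annotated exon begins, so that the upstream sequence of the gene that fell can be read beside that of its neighbour. Capitals mark GAGGAA, or TTCCTC on the other strand, the core of the motif bound by the myeloid factor PU.1. It occurs 1 time in the Tlr1 stretch of 245 bases (chr5:64933564-64933808) and 0 times in the Tlr6 stretch of 201 bases (chr5:64960098-64960298).
Tlr1 upstream: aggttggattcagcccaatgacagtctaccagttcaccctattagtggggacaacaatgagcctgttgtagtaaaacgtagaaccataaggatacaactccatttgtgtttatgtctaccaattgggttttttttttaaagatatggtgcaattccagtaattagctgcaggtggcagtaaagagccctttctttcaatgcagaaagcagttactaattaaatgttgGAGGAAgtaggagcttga
Tlr6 upstream: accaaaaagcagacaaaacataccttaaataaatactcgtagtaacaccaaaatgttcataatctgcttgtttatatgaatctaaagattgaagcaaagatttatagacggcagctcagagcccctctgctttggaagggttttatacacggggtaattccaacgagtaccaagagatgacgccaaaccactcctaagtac

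The promoter table held windows of 300 bases for 8 of the 10 members, Tlr4 and Tlr7 being named only. Tlr1 and Tlr6 had 2 windows each, which makes 10 windows. The motif was present in 4 of these 10 windows, 1 of the 2 for Tlr1 and those of Tlr8, Tlr9 and Tlr13, and in 28.3% of all 32851 windows of that length. A match is a description of letters and not of a bound site.

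TLR2, the shared partner, is the receptor for bacterial lipoproteins. Tlr2 stood at 16.7, 16.8 and 19.6 CPM in the Stag2KO libraries, against 20.5, 21.9 and 20.1 CPM in those of Stag2WT. The groups did not overlap, but the gap between the nearest libraries was small. The log2 fold change was -0.23 (95% interval -0.46 to -0.0028) and Tlr2 was not called (adjusted p = 0.131 by edgeR).

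Tlr4, the receptor for bacterial lipopolysaccharide, had the narrowest interval of the 10 members. It held 26.7, 23.1 and 27.1 CPM in the Stag2KO libraries, against 24.8, 22.1 and 22.8 CPM in those of Stag2WT, on 775 to 1033 reads per library. The groups overlapped, and the log2 fold change was 0.14 (95% interval -0.08 to 0.36, adjusted p = 0.326 by edgeR). Tlr4 was thus the member whose difference was known most closely.

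Tlr5, the flagellin receptor, was the least abundant surface receptor. It stood at 1.64, 0.735 and 2.28 CPM in the Stag2KO libraries, against 1.53, 0.857 and 1.05 CPM in those of Stag2WT, on only 27 to 87 reads. The log2 fold change of 0.44 had an interval from -0.51 to 1.38 (adjusted p = 0.477 by edgeR), an interval that holds both 0 and a 2-fold rise.

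None of the endosomal receptors was called by edgeR, and each had overlapping groups. Tlr7 and Tlr8 encode sensors of single-stranded RNA and are neighbours on chromosome X. Tlr7 stood at 15.9, 20.01 and 33.3 CPM in the Stag2KO libraries, against 37.9, 20.9 and 29.9 CPM in those of Stag2WT. Its groups overlapped, with a log2 fold change of -0.36 (95% interval -1.20 to 0.48, adjusted p = 0.491 by edgeR). Its neighbour was closer to a separation. Tlr8 stood at 9.18, 7.90 and 13.5 CPM in the Stag2KO libraries, against 20.5, 13.3 and 14.6 CPM in those of Stag2WT. Here the groups overlapped only because Stag2KO replicate 3 stood just above Stag2WT replicate 2. The log2 fold change of Tlr8 was -0.66 (95% interval -1.22 to -0.10, adjusted p = 0.0876 by edgeR), and it was not called. Tlr8 passed the threshold without Stag2KO replicate 3 (-0.92, adjusted p = 0.0256) and with DESeq2 (-0.67, adjusted p = 0.0195). Over the other fits without 1 library, and with the covariate (-0.07, adjusted p = 0.97), it did not.

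Tlr9, the sensor of unmethylated CpG DNA, held 8.60, 13.6 and 21.5 CPM in the Stag2KO libraries, against 21.2, 11.9 and 15.6 CPM in those of Stag2WT. The highest and the lowest of its 6 values were both from Stag2KO. The log2 fold change was -0.15 (95% interval -1.05 to 0.75, adjusted p = 0.798 by edgeR). Tlr13 encodes a sensor of bacterial ribosomal RNA found in mice. It held 24.2, 17.4 and 31.8 CPM in the Stag2KO libraries, against 40.3, 18.4 and 21.7 CPM in those of Stag2WT. The groups overlapped, with a log2 fold change of -0.13 (95% interval -1.05 to 0.79, adjusted p = 0.823 by edgeR). The sign for Tlr9 and Tlr13 turned when Stag2WT replicate 1 was left out, to 0.09 and 0.28.

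Tlr3, the sensor of double-stranded RNA, was the least abundant endosomal receptor. It stood at 1.27, 2.21 and 2.46 CPM in the Stag2KO libraries, against 5.51, 1.91 and 2.34 CPM in those of Stag2WT. Stag2WT replicate 1 was more than 2 times as high as any other library, and the remaining values overlapped. The log2 fold change was -0.71 (95% interval -1.75 to 0.33, adjusted p = 0.285 by edgeR). Without Stag2WT replicate 1 it was -0.10 (adjusted p = 0.855).

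**Figure D3:**
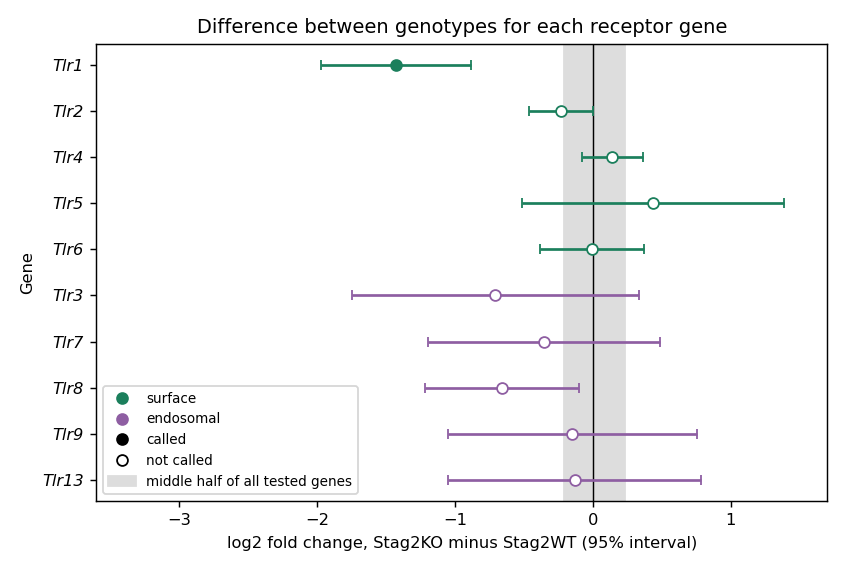
Log2 fold change of each receptor gene, Stag2KO minus Stag2WT, with its 95% interval, green for surface and purple for endosomal receptors, filled where called; the grey band runs from the lower to the upper quartile of all tested genes (-0.21 to 0.24). Tlr1 is the only filled point, and the intervals of the endosomal genes are wide.

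Summed over the class, surface receptors reached 55.0, 51.3 and 60.3 CPM in the Stag2KO libraries, against 67.3, 58.4 and 58.8 CPM in those of Stag2WT. Endosomal receptors reached 59.1, 61.1 and 102.6 CPM in the Stag2KO libraries, against 125.4, 66.4 and 84.1 CPM in those of Stag2WT. In both classes the groups overlapped. The log2 difference of the endosomal sum was -0.31, and it moved to -0.06 without Stag2WT replicate 1, -0.17 without Stag2KO replicate 1, -0.19 without Stag2KO replicate 2, -0.52 without Stag2WT replicate 2 and -0.56 without Stag2KO replicate 3. That of the surface sum was -0.15, ranging from -0.21 without Stag2KO replicate 3 to -0.08 without Stag2WT replicate 1. The surface share of the family's level was 43.6% ± 5.84 in Stag2KO and 41.0% ± 5.93 in Stag2WT (SD, n = 3 each), a difference smaller than the spread within a group. The spread within a genotype, as SD over mean, ran from 23.7% to 60.4% for the endosomal genes. For the surface genes it ran from 4.51% for Tlr2 in Stag2WT to 50% for Tlr5 in Stag2KO. At the lowest read count of each gene the counting error was 3.96% to 16.4% for the endosomal genes, below their spread in both genotypes. Whether the classes differ in their response was not tested.

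The same libraries were high for most members. Within Stag2KO, replicate 3 was the highest library for 9 of 10 genes, Tlr6 being the exception. Within Stag2WT, replicate 1 was the highest for 9 of 10, Tlr2 being the exception, and replicate 2 was the lowest for 8 of 10. Over the 6 libraries the log2 levels of the endosomal genes correlated at 0.641 to 0.955 over 10 pairs, and those of the surface genes at -0.37 to 0.916. These pairs share libraries and scaling, so the values are a description. With Stag2KO replicate 3 and Stag2WT replicate 1 both left out, a choice made after seeing these values, Tlr1 was called (-1.34, adjusted p = 0.013 by edgeR) and so was Tlr8 (-0.71, adjusted p = 0.0415).

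Markers of cells known to carry these receptors moved with genotype or with library. By edgeR, 10.5% of all tested genes were called lower and 10.7% higher. The shares at an unadjusted p under 0.05 were 18.5% lower and 18.6% higher by edgeR. Macrophage markers were lower in Stag2KO for 14 of 15 genes, with a summed level of 401 to 613 CPM against 1629 to 1691 CPM in Stag2WT. Monocyte markers were lower for 6 of 12 (2121 to 2747 against 2735 to 3629 CPM), and B cell markers for 11 of 11 (102 to 117 against 247 to 378 CPM). No macrophage, monocyte or B cell marker was higher by edgeR, DESeq2 or limma-voom; at an unadjusted p under 0.05 this count was 0 by edgeR, and 1 monocyte marker was higher by DESeq2 and by limma-voom. Macrophage and B cell sums thus separated the genotypes, as Tlr1 did. So, in the other direction, did the stem and progenitor sum (799.5 to 942.3 CPM in Stag2KO against 671.1 to 792.1 CPM in Stag2WT). The eosinophil sum did as well (3798 to 5852 against 1120 to 1690 CPM). Such a split is common, as the groups did not overlap for 43.5% of all tested genes. Plasmacytoid dendritic cell markers overlapped, with 1 of 9 called lower, and stood at 372, 495 and 748 CPM in the Stag2KO libraries, against 663, 461 and 631 CPM in those of Stag2WT. Their order over the libraries within each genotype was the same as that of Tlr7 and Tlr9. The classical dendritic cell sum had that order as well. Classical dendritic cell markers were lower for 3 of 9 and higher for 0. At an unadjusted p under 0.05, 1 of them, Xcr1, was higher by edgeR (log2 fold change 1.06). The sums of this list overlapped narrowly. They stood at 115, 165 and 195.2 CPM in the Stag2KO libraries, against 256, 194.8 and 255 CPM in those of Stag2WT. Neutrophil markers overlapped widely, at 6164 to 10440 against 5945 to 9412 CPM, with 1 of 12 called higher and 0 lower. The plasmacytoid count called lower and the neutrophil count called higher lie near the shares over all tested genes. No marker of these lists was at 0 reads in any library. The part of any of these cells in the receptor levels was not tested.

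**Figure D4:**
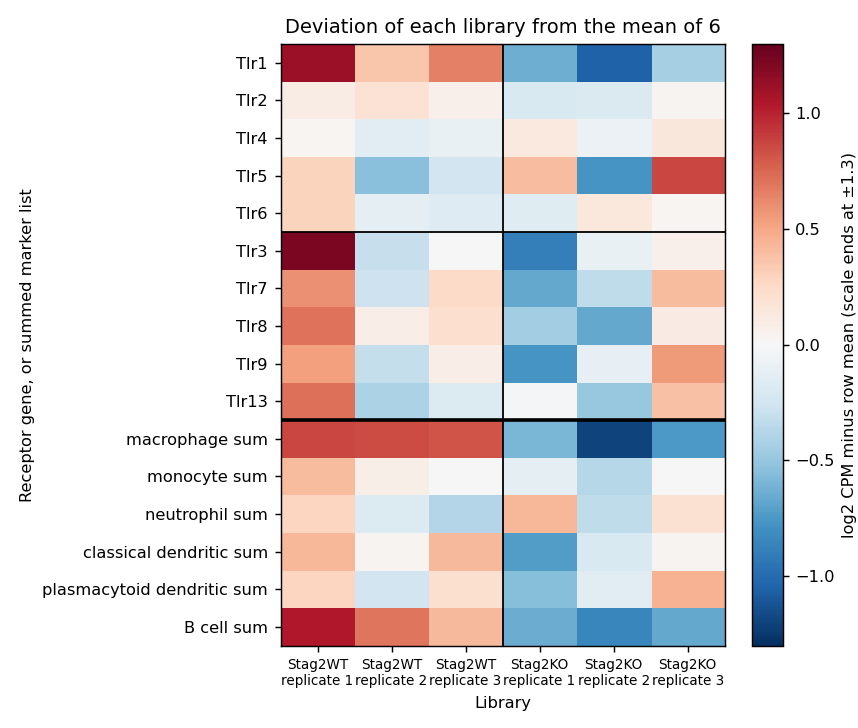
Deviation of log2 CPM in each library from its row's mean over 6 libraries, for the surface genes (top), the endosomal genes (middle) and the summed marker lists (bottom), red for above and blue for below the mean. Of the sums shown, those of macrophages and B cells split by genotype as Tlr1 does. So did 43.5% of all tested genes, in either direction. Stag2WT replicate 1 and Stag2KO replicate 3 are each the highest of their genotype for 9 of 10 receptor genes. Both are also the highest of their genotype for the monocyte, classical dendritic and plasmacytoid dendritic sums.

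Levels between genes were compared per length, as CPM per kb of the GENCODE M21 transcript with the longest coding sequence. This scale assumes reads from the whole transcript, and the library kit of these samples is not named in the labels. In Stag2WT the order was Tlr7 (7.59 ± 2.18), Tlr2 (6.92 ± 0.312), Tlr13 (6.6 ± 2.90), Tlr4 (5.70 ± 0.348), Tlr8 (4.70 ± 1.11), Tlr9 (4.66 ± 1.35), Tlr1 (2.93 ± 0.791), Tlr6 (2 ± 0.362), Tlr3 (0.738 ± 0.446) and Tlr5 (0.358 ± 0.108), each as mean ± SD over 3 libraries. Only the step from Tlr6 to Tlr3 separated neighbours in that order without overlap of their libraries. In Stag2KO, Tlr4 (6.28 ± 0.536), Tlr13 (6.03 ± 1.78), Tlr7 (5.92 ± 2.34) and Tlr2 (5.88 ± 0.55) led with overlapping values, and Tlr1 (1.09 ± 0.229) lay below Tlr6 (2 ± 0.207) with no overlap. The uncertainty from shared sequence applies to both.

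The genes whose pattern over the 6 libraries was most like that of Tlr1, ranked by Pearson correlation of log2 CPM among 9626 genes, were Myo10 (r = 0.998), Ms4a7 (0.997) and Lfng (0.995). Myo10 encodes an unconventional myosin, Ms4a7 a membrane protein of the CD20 family and Lfng a glycosyltransferase that modifies Notch. For Tlr8, the endosomal receptor with the smallest p, they were Stx7 (0.996), Sbf2 (0.993) and Lsp1 (0.992). Stx7 encodes an endosomal syntaxin and Lsp1 a leukocyte actin-binding protein. With 6 libraries and this many genes, correlations as high are a ranking only.

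Beyond the 10 members, mice carry Tlr11 and Tlr12, whose products sense profilin of protozoa. Tlr11 stood at 1.53 ± 0.691 CPM in the Stag2KO libraries, against 0.973 ± 0.461 CPM in those of Stag2WT, and its log2 fold change was 0.65 (adjusted p = 0.29 by edgeR). Tlr12 stood at 9.21 ± 2.77 and 11.1 ± 3.30 CPM (-0.27, adjusted p = 0.532). Neither was called by edgeR, DESeq2 or limma-voom, nor had an unadjusted p under 0.05, and both were also highest in Stag2KO replicate 3 and Stag2WT replicate 1 within their genotypes.

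The rest of the pathway was described with 7 lists by role, 83 genes in all. Of the 77 that passed the filter, 9 were higher, 9 lower and 59 not called, so 23.4% were called against 21.2% of all tested genes. Their median log2 fold change was -0.04. Adaptors and transcription factors held no called gene by edgeR. With the share of reads in no gene as a covariate, every called gene named below missed the threshold, with adjusted p from 0.131 (Il1b) to 0.916 (Ctsb). All kept their direction. The log2 fold changes of Ikbke (0.70), Irak3 (0.54), Lbp (0.76), Irak4 (0.36) and Sigirr (0.64) were then no smaller than without the covariate. Those of Ctsb (-0.07), Irak2 (-0.22) and Peli1 (-0.12) came nearest to 0, and Il1b stood at -1.90, Cd14 at -1.48, Ccl5 at -1.19 and Lgmn at -1.005. The macrophage, monocyte and B cell markers given above were lower in Stag2KO in the same libraries, and their part in these differences was not tested.

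Co-receptors present ligands to the receptors. Cd14, which encodes the lipopolysaccharide carrier of myeloid cells, fell from 5.50 ± 0.285 to 1.23 ± 0.864 CPM, a log2 fold change of -2.14 (SE 0.42, adjusted p = 0.0139 by edgeR). Ly86, encoding the MD-1 partner of the receptor-like protein CD180, fell from 62.9 ± 6.46 to 38.9 ± 10.08 CPM (-0.69, adjusted p = 0.0376). Cd180 itself was not called, at 46.9 ± 10.8 against 47.3 ± 11.3 CPM (-0.01, adjusted p = 0.979). Lbp, encoding the lipopolysaccharide-binding protein, rose from 87.05 ± 10.1 to 135.7 ± 16.1 CPM (0.64, adjusted p = 0.00742). Ly96, whose product MD-2 holds lipopolysaccharide in TLR4, was at 3.11 ± 0.601 and 4.01 ± 0.648 CPM (-0.37, adjusted p = 0.233) and was not called. In all, 1 of 7 was higher, 2 lower and 4 not called, with a median log2 fold change of -0.06. Among all tested genes 10.7% were higher and 10.5% lower. The Cd14 and Lbp calls held without any 1 library. The Ly86 call was lost in 5 of 6 such fits (adjusted p 0.0726 to 0.108) and held only without Stag2KO replicate 3. It was also lost when every gene of 1 read or more was tested (adjusted p = 0.0723).

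Chaperones and endosomal proteases make the receptors ready for use. Lgmn, encoding the protease legumain that helps cleave endosomal receptors, fell from 59.1 ± 8.68 to 20.3 ± 4.88 CPM, a log2 fold change of -1.54 (adjusted p = 0.00325 by edgeR). Ctsb, the cathepsin B gene, fell from 774 ± 85.4 to 545 ± 83.7 CPM (-0.51, adjusted p = 0.0268). Unc93b1, which carries the endosomal receptors from the endoplasmic reticulum, was at 213 ± 41.2 and 272 ± 26.96 CPM (-0.35, adjusted p = 0.111 by edgeR). It passed with DESeq2 (adjusted p = 0.04) and without Stag2KO replicate 3 (adjusted p = 0.0139). The chaperone genes Hsp90b1 (-0.27, adjusted p = 0.0643) and Cnpy3 (0.11, adjusted p = 0.248), whose products fold surface and endosomal receptors, were not called by edgeR. Hsp90b1 passed with DESeq2 (adjusted p = 0.0199) and without Stag2WT replicate 1 (adjusted p = 0.0399). Of 10 genes 2 were lower, 0 higher and 8 not called, with a median of -0.33, and DESeq2 called 5 lower and 0 higher. At an unadjusted p under 0.05, 6 were lower and 0 higher by edgeR. Among all tested genes, 10.5% were called lower by edgeR and 12.9% by DESeq2. At the unadjusted threshold 18.5% of them were lower and 18.6% higher by edgeR. Ctsb passed only when Stag2KO replicate 3 or Stag2WT replicate 3 was the library left out, and otherwise had adjusted p of 0.0617 to 0.0687. Lgmn and Ctsb are also well known from macrophages, whose markers were lower in Stag2KO as given above; their part was not tested.

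Adaptors carry the signal from the receptor tail, and none was called. Myd88, the adaptor of nearly all the receptors, was at 70.02 ± 5.94 CPM in the Stag2KO libraries, against 70.8 ± 2.31 CPM in those of Stag2WT, and its log2 fold change was -0.02 (adjusted p = 0.891 by edgeR). The bridging adaptor Tirap (0.13), the TLR3 and TLR4 adaptor Ticam1 (0.08) and its bridge Ticam2 (0.00) were not called, with adjusted p of 0.595, 0.578 and 0.989. Of 5 tested adaptors 0 were called in either direction by edgeR, DESeq2 or limma-voom, and 0 at an unadjusted p under 0.05. EdgeR called 21.2% of all tested genes in either direction. With only 5 genes, a count of 0 says little beside that share. Sarm1, the remaining adaptor, did not pass the filter.

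Among kinases and ubiquitin ligases, Ikbke, which activates interferon regulatory factors, rose from 71.5 ± 5.57 to 105.4 ± 12.7 CPM, a log2 fold change of 0.56 (adjusted p = 0.00713 by edgeR). Irak2, a kinase of the complex that forms on MyD88, fell from 30.8 ± 2.85 to 20.3 ± 1.96 CPM (-0.60, adjusted p = 0.00769). Irak4, the first kinase of that complex, also rose, at a log2 fold change of 0.29 (adjusted p = 0.0293). The ligase gene Peli1 fell, at a log2 fold change of -0.27 (adjusted p = 0.031). Traf6, the ligase that receives the signal, was at 72.6 ± 2.10 and 73.5 ± 3.34 CPM (-0.02, adjusted p = 0.862). Of 18 genes 4 were higher, 2 lower and 12 not called, with a median of 0.07. Among all tested genes 10.7% were higher and 10.5% lower. The calls of Irak4 (adjusted p 0.0537 to 0.0927) and Peli1 (0.0576 to 0.0973) were each lost in 5 of 6 fits without 1 library. That of Irak4 held only without Stag2KO replicate 2, and that of Peli1 only without Stag2WT replicate 3.

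Transcription factors of the NF-kB and interferon regulatory factor families were not called in either direction by edgeR or limma-voom, while DESeq2 called 1 of 10 lower. At an unadjusted p under 0.05, edgeR gave 1 higher and 0 lower. Over all tested genes, edgeR called 10.7% higher and 10.5% lower, and DESeq2 called 12.9% lower. The unadjusted shares by edgeR were 18.6% higher and 18.5% lower. Irf7, which drives interferon genes after endosomal signalling, spread widely, at 38.1 ± 20.8 CPM in the Stag2KO libraries, against 42.9 ± 16.9 CPM in those of Stag2WT, and its log2 fold change was -0.17 (adjusted p = 0.84). The median of the list was -0.12.

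Inhibitors of the pathway included 3 genes that were called, all of them higher. Of all tested genes, 10.7% were called higher and 10.5% lower by edgeR. Sigirr, a receptor that dampens signalling of this family, rose from 24.8 ± 1.36 to 38.3 ± 1.93 CPM, a log2 fold change of 0.63 (SE 0.08, adjusted p = 0.00229 by edgeR). Irak3, encoding the inhibitory kinase-like protein IRAK-M, rose from 52.0 ± 3.10 to 68.1 ± 2.76 CPM (0.39, adjusted p = 0.00748). Il1rl1, encoding the interleukin 33 receptor, a protein also typical of mast cells, basophils and eosinophils, rose from 95.02 ± 8.55 to 130.4 ± 15.9 CPM (0.46, adjusted p = 0.0182). Eosinophil markers were also higher for 7 of 8 genes, at 3798 to 5852 against 1120 to 1690 CPM, and their part was not tested. Of 14 inhibitors 3 were higher, 0 lower and 11 not called, with a median of 0.07; DESeq2 and limma-voom gave the same counts, and 1 was lower at an unadjusted p under 0.05. The Il1rl1 call was lost in 4 of 6 fits without 1 library (adjusted p 0.0527 to 0.0571), and held without Stag2KO replicate 3 or Stag2WT replicate 2.

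Genes that these receptors are known to induce included 3 that fell and 1 that rose. Il1b, encoding interleukin 1 beta, fell from 10.97 ± 1.92 to 1.94 ± 0.62 CPM, a log2 fold change of -2.49 (SE 0.24, adjusted p = 0.000853 by edgeR). The chemokine gene Ccl5 fell from 27.2 ± 6.01 to 10.6 ± 2.78 CPM (-1.35, adjusted p = 0.00793), and Ccl4 fell from 4.26 ± 0.79 to 2.55 ± 0.433 CPM (-0.74, adjusted p = 0.0385). Il12a, encoding a subunit of interleukin 12 and interleukin 35, rose from 16.0 ± 0.356 to 20.8 ± 2.26 CPM (0.38, adjusted p = 0.0386). Of 18 listed genes 13 passed the filter, of which 1 was higher, 3 lower and 9 not called, with a median of -0.28. By edgeR, 10.7% of all tested genes were called higher and 10.5% lower. The Ccl4 call was lost in 4 of 6 fits without 1 library (adjusted p 0.0785 to 0.108), holding without Stag2KO replicate 3 or Stag2WT replicate 2. The Il12a call was lost in 5 of 6 (0.0774 to 0.119), holding only without Stag2KO replicate 3. DESeq2 called 4 of the 13 lower and 1 higher, with 12.9% of all tested genes called lower. The Il1b and Ccl5 calls held in all 6 of these fits.

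**Figure D5:**
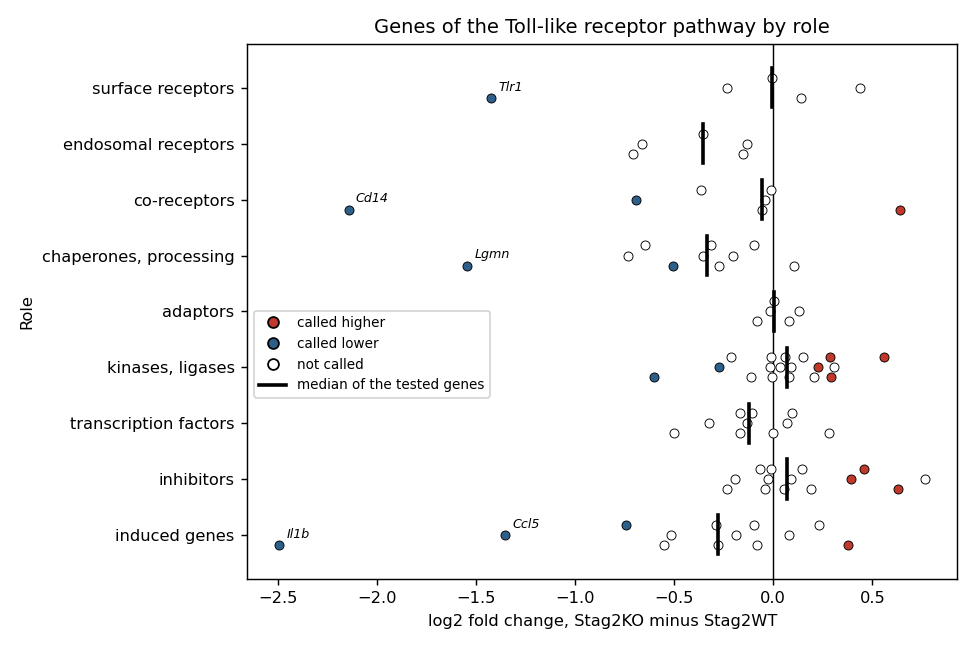
Log2 fold change (Stag2KO minus Stag2WT, horizontal axis) of each tested gene of the pathway by role, red where called higher, blue where called lower and open where not called, with a bar at the median of each role; vertical offsets only separate points. Cd14, Lgmn, Il1b, Ccl5 and Tlr1 lie furthest to the left, and the adaptors lie close to 0.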

How the data were processed

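RNA was measured in 6 libraries, 3 per genotype. The authors deposited 1 table of raw counts per gene symbol; per the submitters' processing notes, the tools were DESeq2, HTSeq 0.6.1 and STAR 2.4, and the build was mm9. The sources used here do not give the annotation, strand setting, read length or library kit of these samples, so antisense and overlapping genes cannot be told apart. Genotype came from the labels, and replicate numbers only name samples. Library sizes exclude the counter's summary lines, which held 8.81% to 12.8% of a table's reads (no gene), 2.02% to 2.20% (ambiguous) and 23.4% to 28.6% (several places). Libraries of a genotype differed by more than counting noise (chi-square per degree of freedom 20.9 to 46.7), so all were kept.

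The test was that of edgeR 4.0.16 under R 4.3.3 (TMM, filterByExpr, robust quasi-likelihood fit, genotype only), with Benjamini-Hochberg adjustment over 15708 genes and a threshold of 0.05. Standard errors and 95% intervals come from that fit, and CPM uses TMM-scaled library sizes. Otulin, Adgre1 and Siglecf were read under the table's older symbols Fam105b, Emr1 and Siglec5. Transcript lengths and coding sequences were those of GENCODE M21 and promoters those of RefSeq (GRCm38.p6), a build later than mm9. Alternatives used DESeq2 1.42.0 and limma 3.58.1 among others. The fits were tested on simulated data.

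The text names all members, up to 4 called genes with the smallest p of each list and, whatever their result, Cd14, Ly96, Cd180, Ly86, Unc93b1, Hsp90b1, Cnpy3, Myd88, Tirap, Ticam1, Ticam2, Irak4, Traf6, Irf7, Tlr11 and Tlr12. The 3 genes most like Tlr1 and Tlr8 were ranked among tested genes averaging 5 CPM or more (log2 CPM with a prior count of 2), leaving out numbered gene models, sex-linked genes and members. Members and lists were chosen with earlier results of these data known. Counting errors treat reads as independent, which amplified reads are not. The intervals rest on the spread between libraries.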

Additional observations from a re-analysis of the deposited data

How the results depend on the processing

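The Tlr1 call held with DESeq2, with limma-voom, without robust dispersion, with median-ratio size factors, with every gene of 1 read or more tested, with a filter of 5 CPM in 3 libraries (which drops Tlr3 and Tlr5), and in all 6 fits without 1 library. It was lost only with the share of reads in no gene as a covariate, where 0 receptor genes and 67 genes in all were called. Receptor genes called lower numbered 2 with DESeq2, 1 to 2 over the fits without 1 library (2 without Stag2KO replicate 3) and 2 without both Stag2KO replicate 3 and Stag2WT replicate 1, a choice added after seeing the data. None of these fits called a receptor gene higher. All called genes numbered 1967 to 2548 over the fits without 1 library and 1550 without both of those libraries, against 3333; these fits hold fewer samples. Depth limits Tlr3 and Tlr5 most.

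Some log2 fold changes changed sign, and none of those genes was called in any fit. With median-ratio size factors Ticam2 was at -0.0047, with every gene tested at -0.00084 and with DESeq2 at -0.0033; with limma-voom Tlr6 was at 0.0091 and Cd180 at 0.0041. With the covariate Tlr13 was at 0.77, Irf7 at 0.23, Myd88 at 0.11 and Ticam2 at -0.16. Without both named libraries Tlr6 was at 0.15, Tlr13 at 0.05, Cd180 at 0.02 and Ticam2 at -0.02, and Traf6 kept its sign at -0.065. Over the fits without 1 library Tlr6 ran from -0.087 to 0.15, Tlr9 from -0.54 to 0.12, Tlr13 from -0.37 to 0.28, Cd180 from -0.17 to 0.18, Irf7 from -0.66 to 0.20, Myd88 from -0.083 to 0.040, Ticam2 from -0.036 to 0.063, Tirap from -0.026 to 0.22 and Traf6 from -0.055 to 0.0080. The causes were not tested. No paired analysis was possible because the labels give the libraries no replicate numbers shared between the genotypes.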
